A study of Oryza sativa Japonica Group with 12 samples.

Results

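The PP2C family of rice holds the genes named PP2C plus a number. Of its genes 55 were read here, among 17905 genes that had a probe set listed with 1 gene in the array annotation. Members were taken by symbol or synonym, after removing a leading Os, which gave 60 genes in the gene table. Another 5 members (PP2C41, PP2C49, PP2C50, PP2C65 and PP2C77) had no probe set listed with 1 gene and were not analysed here. Of a gene's probe sets, the one with the highest 12-array mean was read. Members were matched by name and not by a measured difference, but earlier results of these data were known when they were chosen. In all, 72 probe sets matched the family, 43 genes had 1 probe set and 12 genes had more.

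Total RNA of the basal 5 mm of shoots, cultivar Nipponbare, was hybridised to 1-colour Affymetrix rice arrays. The wild type was compared with homozygous gs1;2 plants, which lack cytosolic glutamine synthetase 1;2, an enzyme that fixes ammonium into glutamine. All plants grew in nutrient solution with 1 mM ammonium as the nitrogen source. The 4 groups were wild type at 7 d, gs1;2 at 7 d, wild type at 11 d and gs1;2 at 11 d, with 3 arrays in each. Arrays of one group are biological replicates in the series text, and no second mutant allele or rescued line is named in the labels. Values below are log2 signals, and a difference is one between log2 group means with its standard error (SE).

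PP2C proteins are protein phosphatases that remove phosphate from serine and threonine and need magnesium or manganese. The best known branch of the family is the abscisic acid (ABA) co-receptors. Without ABA they hold kinases of the SnRK2 type, called SAPK in rice, in the off state, and with ABA a PYL receptor binds the phosphatase and releases the kinase. ABA is a hormone of water deficit, seed dormancy and growth restraint. Other branches act on mitogen-activated protein kinases, immune receptors or organelle proteins, and for many rice members no role is given here.

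To check the labels, the targeted gene GLN1-2 was looked at before the PP2C genes. Its log2 signal lay between 12.31 and 12.50 on the 6 wild-type arrays and 7.76, 7.65 and 7.80 on the gs1;2 arrays at 7 d. On the arrays labelled gs1;2 at 11 d it was 8.37, 8.65 and 11.44, so replicate 3 went against its label, and the PP2C calls at 11 d are given below with and without that array. The mutant at 11 d means the arrays so labelled, replicate 3 among them. The growth text gives samples numbered 13 to 36 another lamp and 18 days of growth. Titles of the wild-type 11 d arrays carry the numbers 13, 14 and 15, and the labels do not say whether those numbers are meant. If they are, that condition cannot be told apart from the wild type at 11 d. Arrays of a group correlated at 0.994 to 0.997 over all probe sets, and the wild-type arrays at 11 d correlated with those of the other groups at 0.978 to 0.985.

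At 11 d the family was split in both directions between gs1;2 and wild type, and at 7 d few members passed. At 7 d 2 of 55 genes were higher in gs1;2 and 0 were lower, where 0.787% of all genes were higher and 0.464% were lower (1.25% in all). These calls come from limma with Benjamini-Hochberg adjustment at 0.05, and 14 members had an unadjusted p under 0.05. At 11 d 12 genes (21.8%) were higher and 14 (25.5%) were lower, where 23.9% of all genes were higher and 22.8% were lower. The share of the family that passed at 11 d, 47.3%, was near the 46.7% of all genes, so the count was no result about the family. With every array set to a common median the 11 d counts were 9 higher and 16 lower. Without the array labelled gs1;2 at 11 d replicate 3, 21 of the 26 calls remained, those of PP2C15, PP2C32, PP2C53, PP2C57 and PP2C60 were lost, and PP2C30 and PP2C70 passed.

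The genotype difference at 11 d ran from -2.00 to 0.79 over the 55 genes, with a median of -0.05 beside 0.02 over all genes. At 7 d it ran from -0.24 to 0.65, with a median of 0.12 beside 0.01. On the probe sets used, a change of at least 1 log2 unit that passed was found at 11 d for 3 members. They were PP2C61, PP2C25 and PP2C11, all lower in the mutant. A second probe set of PP2C45, described below, differed by -4.50 (SE 0.32, limma adjusted p 1.55e-06). The RNA is from whole tissue, so fewer cells of a type and less RNA per cell cannot be told apart for any of these genes.

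**Figure D1:**
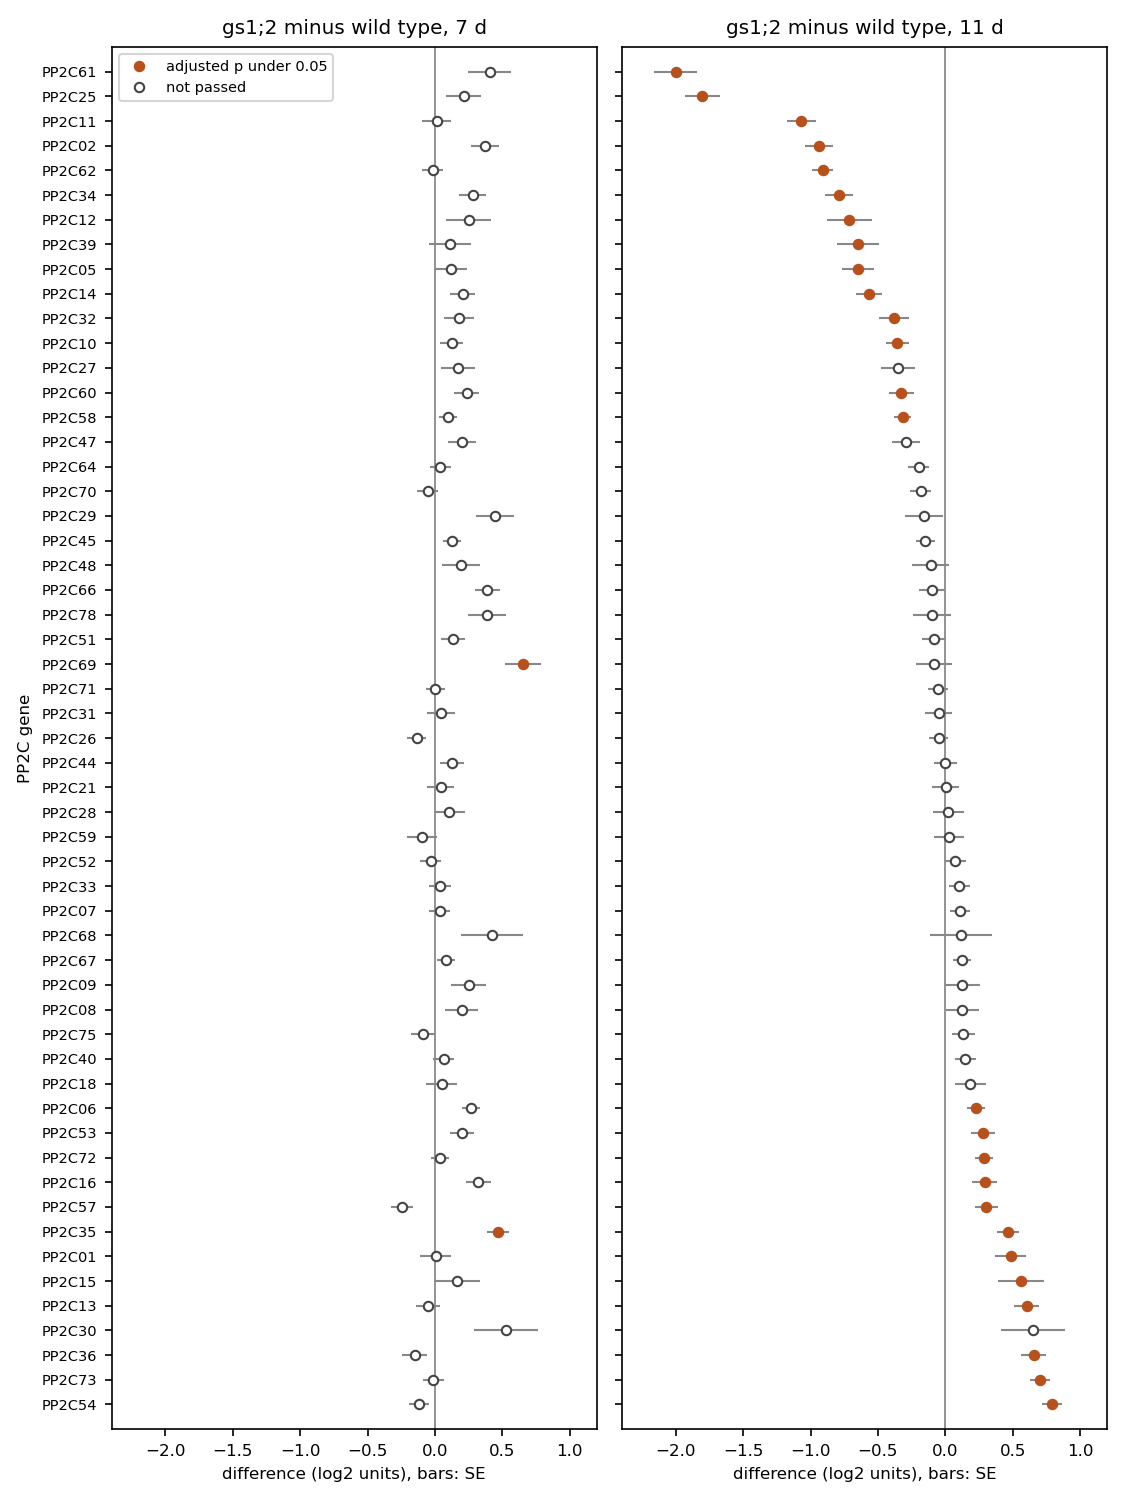
Genotype difference (gs1;2 minus wild type, log2) of each of the 55 PP2C genes at 7 d and at 11 d, with bars of 1 SE and filled points where the limma adjusted p was under 0.05. At 11 d the points run from -2.00 for PP2C61 to 0.79 for PP2C54, and at 7 d only PP2C35 and PP2C69 are filled.

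The ABA co-receptor group held 9 listed genes, of which 7 were read: PP2C06, PP2C08, PP2C09, PP2C30, PP2C51, PP2C53 and PP2C68. At 11 d 2 of the 7 were higher in the mutant and 0 were lower, where 23.9% of all genes were higher and 22.8% were lower. The median difference was 0.13, between -0.08 and 0.65. At 7 d all 7 differences were positive, with a median of 0.25 between 0.14 and 0.53. The median over the 55 PP2C genes was also positive, at 0.12, beside 0.01 over all genes. None of the 7 passed by limma, and 3 had an unadjusted p under 0.05, as did 14 of the 55. The interaction test asks whether the genotype difference changed from 7 to 11 d. It called 0 of the 7, where it called 38.2% of all genes and 40.0% of the family. Of the 7, 0 had an unadjusted p under 0.05.

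PP2C06, also known as ABIL1 and a brake on ABA responses, had log2 signals of 8.83, 8.78 and 8.88 in wild type at 7 d and 9.15, 9.06 and 9.08 in the mutant. At 11 d the wild type gave 8.82, 8.86 and 8.80 and the mutant gave 9.01, 9.11 and 9.04. Arrays labelled gs1;2 lay above the wild-type arrays at both ages without overlap. The difference was 0.27 (SE 0.07) at 7 d, with a limma adjusted p of 0.0772, and 0.23 (SE 0.07) at 11 d, with an adjusted p of 0.0202. The 11 d call was lost without wild-type 11 d replicate 3 (adjusted p 0.0711) or mutant 11 d replicate 2 (adjusted p 0.0896), and with arrays set to a common median (adjusted p 0.0541).

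PP2C53, or ABIL2, a co-receptor linked to stomata and roots, had signals of 8.41, 8.59 and 8.60 in wild type at 11 d and 8.88, 8.79 and 8.77 in the mutant. All 3 arrays labelled gs1;2 at 11 d were above the other 9. The difference was 0.28 (SE 0.09, limma adjusted p 0.0325), and at 7 d it was 0.20 (SE 0.09, adjusted p 0.282). The 11 d call was lost in 5 of the 6 fits that left out one 11 d array, with adjusted p up to 0.122, and with a common median (0.0724).

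PP2C30, a phosphatase that binds the ABA receptor RCAR5, varied more among the arrays labelled gs1;2 at 11 d than any other member, with an SD of 0.438 (n = 3). Its signals were 8.37, 7.62 and 7.67 in wild type and 8.46, 8.59 and 8.18 in the mutant at 7 d. At 11 d they were 7.69, 7.49 and 8.02 in wild type and 8.56, 8.71 and 7.89 in the mutant, where the array labelled gs1;2 11 d replicate 3 lay within the wild-type range. The differences were 0.53 (SE 0.24, limma adjusted p 0.3) and 0.65 (SE 0.24, adjusted p 0.063), and neither passed. Without the array labelled gs1;2 at 11 d replicate 3 the 11 d difference was 0.90, with an adjusted p of 0.0109.

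PP2C09, a negative regulator of ABA and drought responses, and PP2C68, a stress-induced phosphatase, were the 2 co-receptors that rose with age in wild type. Of the 7 co-receptors 0 were called lower with age there when all 12 arrays were fitted. Among all genes 25.5% were called higher and 28.4% lower. PP2C09 had signals of 8.28, 8.24 and 8.24 at 7 d and 8.99, 8.91 and 8.45 at 11 d, a rise of 0.53 (SE 0.13, limma adjusted p 0.0072). PP2C68 had signals of 5.95, 5.34 and 5.09 at 7 d and 6.08, 6.35 and 6.54 at 11 d, a rise of 0.87 (SE 0.23, limma adjusted p 0.0116). Neither gene's age groups overlapped in wild type. The PP2C68 call was lost without wild-type 7 d replicate 3 (adjusted p 0.0532) or 11 d replicate 3 (0.0506). In the mutant the age differences were 0.41 (adjusted p 0.0813) for PP2C09 and 0.56 (adjusted p 0.193) for PP2C68, and the interaction was -0.12 and -0.31, neither past the threshold.

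PP2C08 and PP2C51 passed in no comparison with all 12 arrays fitted. PP2C08 differed by 0.20 (SE 0.12) at 7 d and 0.13 (SE 0.12) at 11 d, and its signals lay between 6.04 and 6.77. Its mean went from 6.49 at 7 d to 6.14 at 11 d in wild type and from 6.69 to 6.27 in the mutant. Without the array labelled gs1;2 at 11 d replicate 3, PP2C08 was called lower with age in both genotypes. PP2C51, which in rice promotes seed germination, lay between 4.64 and 5.07 on all arrays, with differences of 0.14 (SE 0.09) at 7 d and -0.08 (SE 0.09) at 11 d. Its highest group mean was at or below the median of all probe sets, as was that of PP2C31, so small changes of these 2 genes could go unseen.

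**Figure D2:**
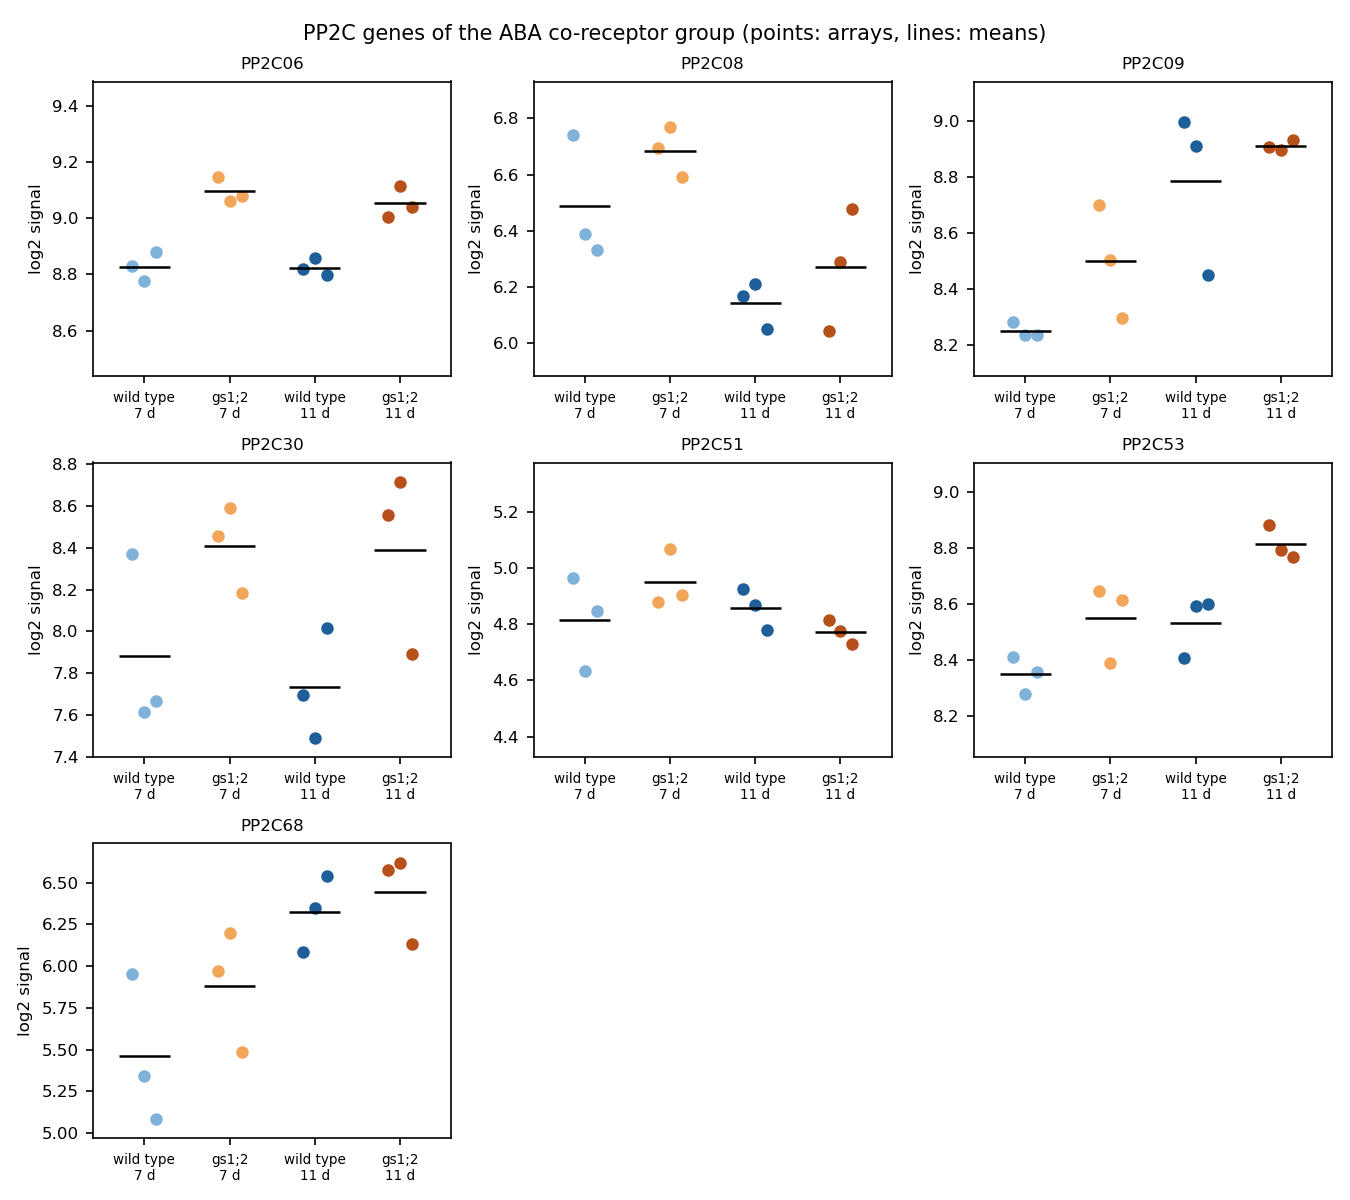
Log2 signal on each of the 12 arrays for the 7 ABA co-receptor PP2C genes, by genotype and age, with lines at group means. PP2C06 shows gs1;2 above wild type at both ages, and PP2C30 shows the array labelled gs1;2 11 d replicate 3 at 7.89 beside 8.56 and 8.71.

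Genes that act with the co-receptors were read from lists chosen with results of these data known. Of 10 SAPK kinases 0 were higher and 5 were lower in the mutant at 11 d, beside 23.9% and 22.8% of all genes. They were SAPK9 at -2.75 (SE 0.11), SAPK10 at -1.29 (SE 0.11), SAPK1 at -1.20 (SE 0.13), SAPK8 at -0.50 (SE 0.08) and SAPK4 at -0.37 (SE 0.10). At 7 d SAPK7 alone passed, at -0.39 (SE 0.08, limma adjusted p 0.0402). SAPK9 had signals of 9.18, 9.56 and 9.50 in wild type at 11 d and 6.75, 6.55 and 6.70 in the mutant, with no overlap. The 1 ABA receptor read, listed under the names PYL11, PYL5 and RCAR5, was lower in the mutant at 11 d by limma, at -0.55 (SE 0.08, adjusted p 0.00027). Of 3 transcription factors, ABF2 was higher at 0.52 (SE 0.12), TRAB1 was lower at -0.32 (SE 0.08), and VP1, at 0.09 (SE 0.14), did not pass. All 11 d calls of these 3 lists remained without the array labelled gs1;2 at 11 d replicate 3.

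PP2C35, also called XB15, dephosphorylates the rice immune receptor XA21, and it was higher in the mutant at both ages. Its signals at 7 d were 8.53, 8.36 and 8.31 in wild type and 8.90, 8.80 and 8.90 in the mutant. At 11 d they were 8.07, 7.99 and 8.21 in wild type and 8.58, 8.58 and 8.49 in the mutant. The mutant was above the wild type on every array at each age, and both genotypes were lower at 11 d. The difference was 0.47 (SE 0.08, limma adjusted p 0.0221) at 7 d and 0.46 (SE 0.08, adjusted p 0.00105) at 11 d, and the interaction was -0.01. The 7 d call held in 9 of the 12 fits that left out one array, and was lost without wild-type 7 d replicate 2 (adjusted p 0.0956) or 3 (0.0717) or mutant 7 d replicate 3 (0.0876). It was also lost in a fit of the 7 d groups alone (adjusted p 0.0959).

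PP2C13, known as DCW11 and named from its lower level in a male-sterile rice cytoplasm, is a mitochondrial phosphatase. Its signals were 10.01, 9.79 and 9.80 in wild type at 7 d, 9.93, 9.66 and 9.85 in the mutant at 7 d, 9.08, 9.08 and 9.12 in wild type at 11 d, and 9.78, 9.69 and 9.61 in the mutant at 11 d. The wild type at 11 d was below the other 9 arrays. The difference was 0.60 at 11 d (SE 0.09, limma adjusted p 0.000298), and the interaction was 0.66 (SE 0.13, adjusted p 0.00282).

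PP2C34, or BIPP2C2, was named for its induction by benzothiadiazole, a chemical that primes plant defence. Its signals at 11 d were 9.25, 9.41 and 9.53 in wild type and 8.69, 8.57 and 8.56 in the mutant, and the wild type at 11 d was above the other 9 arrays. The difference was -0.79 (SE 0.10, limma adjusted p 0.000104). At 7 d its wild-type arrays, at 8.31, 8.36 and 8.54, were the lowest of the 4 groups, and the difference there was 0.28 and did not pass.

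PP2C27, which acts on a mitogen-activated protein kinase in the cold response, passed in no comparison. Its signals at 11 d were 7.03, 7.22 and 7.06 in wild type and 6.73, 6.94 and 6.57 in the mutant, with no overlap. The difference was -0.35 (SE 0.13, limma adjusted p 0.0605), and the interaction was -0.53 (SE 0.18, adjusted p 0.0575).

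On the probe sets used, the members lowest in the mutant at 11 d were genes for which no role is given here. PP2C61 (LOC4342246) had signals of 5.02, 4.84 and 5.29 in wild type and 5.16, 5.80 and 5.41 in the mutant at 7 d. At 11 d they were 7.57, 7.68 and 7.79 in wild type and 5.88, 5.62 and 5.54 in the mutant. Wild type at 11 d stood above all other arrays, and the 2 genotypes overlapped at 7 d. The difference at 11 d was -2.00 (SE 0.16), 4.00-fold lower in the mutant, with a limma adjusted p of 3.03e-06.

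PP2C25 (LOC4330350) had signals of 7.46, 7.93 and 7.90 in the mutant at 7 d and 7.16, 6.95 and 7.21 at 11 d. In wild type they were 7.47, 7.45 and 7.74 at 7 d and 8.81, 8.98 and 8.95 at 11 d. At 11 d the wild type was above and the mutant was below all other groups, with no overlap. The difference at 11 d was -1.80 (SE 0.13), or 3.49-fold lower, with a limma adjusted p of 1.6e-06. PP2C11 (LOC4328505) had signals at 11 d of 10.63, 10.57 and 10.53 in wild type and 9.35, 9.49 and 9.68 in the mutant. Its wild-type arrays at 11 d were above the other 9, and the difference was -1.07 (SE 0.11, limma adjusted p 1.61e-05).

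PP2C02 had signals at 11 d of 9.19, 9.26 and 9.33 in wild type and 8.26, 8.52 and 8.19 in the mutant, a difference of -0.94 (SE 0.10, limma adjusted p 3.34e-05). PP2C62 had signals of 9.53, 9.48 and 9.50 in wild type and 8.54, 8.66 and 8.59 in the mutant, a difference of -0.91 (SE 0.08, adjusted p 5.47e-06). In both genes the 11 d wild type was above the other 9 arrays. The other members lower at 11 d were PP2C12 at -0.71 (SE 0.17, adjusted p 0.00675), PP2C39 at -0.65 (SE 0.16, adjusted p 0.00786), PP2C05 and PP2C14. PP2C05 had signals of 8.41, 8.64 and 8.70 in wild type and 8.00, 7.86 and 7.95 in the mutant at 11 d, a difference of -0.65 (SE 0.12, adjusted p 0.00152). PP2C14 had signals of 10.68, 10.86 and 10.79 in wild type and 10.35, 10.20 and 10.08 in the mutant, a difference of -0.56 (SE 0.10, adjusted p 0.000776). In both the 11 d wild type was above the other 9 arrays. PP2C32, PP2C10, PP2C60 and PP2C58 ran from -0.38 to -0.32, and 2 of these calls depended on single arrays. That of PP2C32 was lost when wild-type 11 d replicate 3 was left out, when mutant 11 d replicate 1 was, and when the array labelled gs1;2 11 d replicate 3 was, and that of PP2C60 without wild-type 11 d replicate 2 or 3 or the array so labelled. With a new quantile normalization PP2C32 had an adjusted p of 0.0504.

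**Figure D3:**
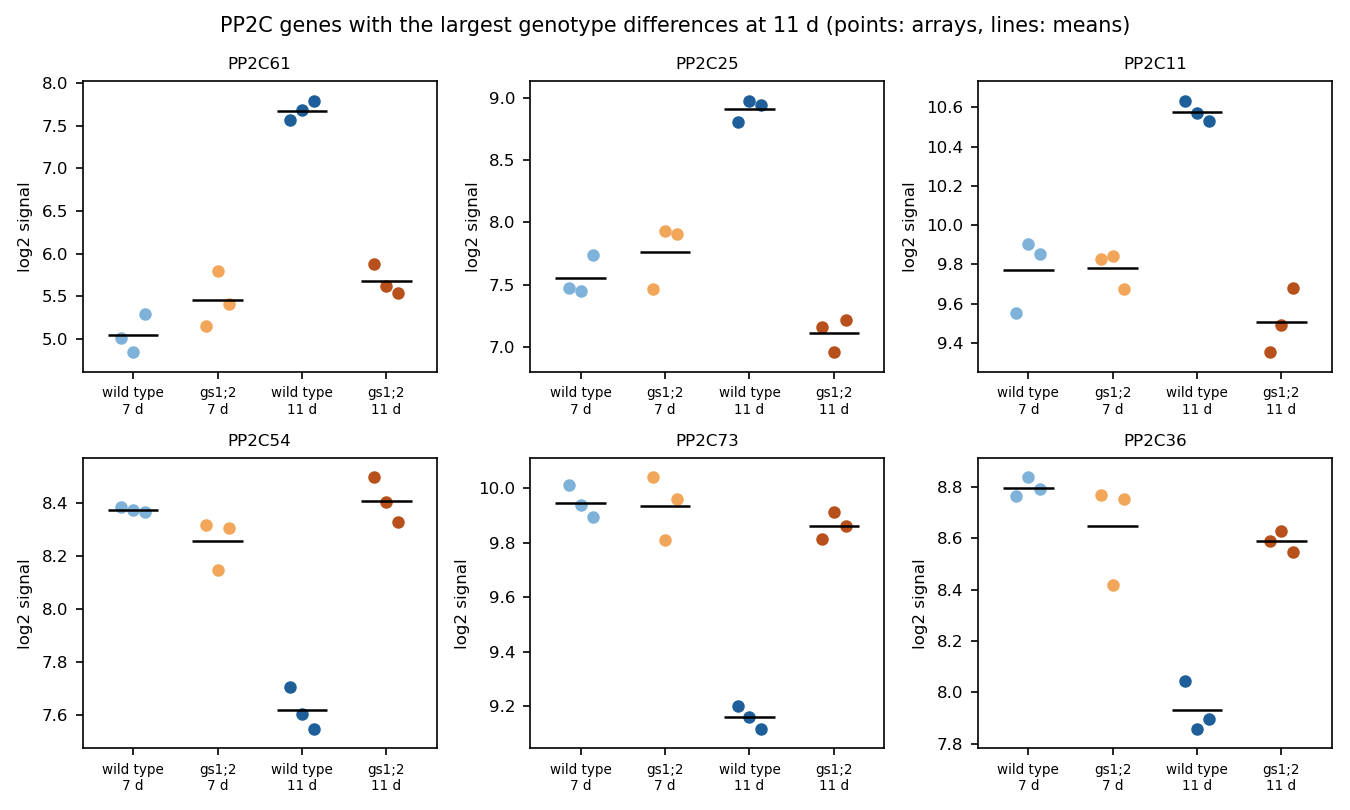
Log2 signal on each array, by genotype and age, of the 3 PP2C genes lowest in gs1;2 at 11 d (PP2C61, PP2C25, PP2C11) and of the 3 highest (PP2C54, PP2C73, PP2C36), with lines at group means. Each gene is shown and ranked on the probe set used. For PP2C61 the wild-type arrays at 11 d sit at 7.57 to 7.79, and the remaining 9 arrays at 4.84 to 5.88.

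The members higher in the mutant at 11 d were smaller in size, and the wild type at 11 d was the group that stood apart in most of them. PP2C54 (LOC4340303) had signals of 8.39, 8.37 and 8.36 in wild type and 8.31, 8.15 and 8.31 in the mutant at 7 d. At 11 d they were 7.70, 7.60 and 7.55 in wild type and 8.50, 8.40 and 8.33 in the mutant. Wild type at 11 d was below all other arrays, and the difference was 0.79 (SE 0.08, limma adjusted p 1.17e-05).

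PP2C73 (LOC4349568) had signals at 11 d of 9.20, 9.16 and 9.12 in wild type and 9.82, 9.91 and 9.86 in the mutant, a difference of 0.70 (SE 0.08, limma adjusted p 2.53e-05). PP2C36 had signals of 8.04, 7.86 and 7.89 in wild type and 8.59, 8.63 and 8.55 in the mutant, a difference of 0.66 (SE 0.09, limma adjusted p 0.000239). In both, wild type at 11 d was below the other 9 arrays. PP2C01 had signals of 7.24, 7.38 and 7.25 in wild type and 7.92, 7.53 and 7.89 in the mutant at 11 d, a difference of 0.49 (SE 0.12, limma adjusted p 0.00758). PP2C72 had signals of 9.40, 9.37 and 9.36 in wild type and 9.66, 9.68 and 9.66 in the mutant, a difference of 0.29 (SE 0.07, limma adjusted p 0.00545). For PP2C01 the wild type at 11 d was below the other 9 arrays, and for PP2C72 the arrays labelled gs1;2 at 11 d were above them.

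PP2C15 had signals of 8.10, 8.09 and 8.27 in wild type and 8.70, 8.57 and 8.88 in the mutant at 11 d, a difference of 0.56 (SE 0.17, limma adjusted p 0.0286). PP2C57 had signals of 9.65, 9.53 and 9.54 in wild type and 9.90, 9.80 and 9.93 in the mutant, a difference of 0.30 (SE 0.08, limma adjusted p 0.0174). PP2C16 had signals of 7.04, 6.98 and 7.21 in wild type and 7.32, 7.54 and 7.25 in the mutant, a difference of 0.29 (SE 0.09, limma adjusted p 0.035). The genotypes did not overlap at 11 d in any of the 3. The calls of PP2C15, PP2C16 and PP2C57 were each lost in 4 of the 12 fits that left out one array, with adjusted p up to 0.0982 for PP2C15, 0.157 for PP2C16 and 0.0671 for PP2C57. The arrays concerned were wild-type 11 d replicates 1 and 2 and 11 d replicate 1 and the doubtful replicate 3 labelled gs1;2 for PP2C15, both groups' replicates 1 and 2 for PP2C16, and wild-type replicates 2 and 3 and the same 2 labelled gs1;2 for PP2C57. With arrays set to a common median PP2C16 had an adjusted p of 0.0653.

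PP2C69 was the other gene higher in the mutant at 7 d. Its signals were 5.70, 5.24 and 5.28 in wild type and 5.90, 5.97 and 6.32 in the mutant at 7 d, and 6.05, 6.26 and 6.19 in wild type and 6.13, 6.10 and 6.02 in the mutant at 11 d. The wild type at 7 d was below the other 9 arrays. The 7 d difference was 0.65 (SE 0.13, limma adjusted p 0.043), and the 11 d difference was -0.08 and did not pass. The 7 d call held in 2 of the 12 fits that left out one array, with adjusted p up to 0.165. It was also lost in a fit of the 7 d groups alone (adjusted p 0.153).

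From 7 to 11 d the family rose more often than it fell in wild type. In wild type 25 genes (45.5%) were higher at 11 d and 8 (14.5%) were lower, where 25.5% of all genes were higher and 28.4% were lower (53.8% in all). The median age difference in wild type was 0.18 over the family and -0.03 over all genes. With a new quantile normalization the counts were 23 higher and 13 lower. The 8 calls lost in at least 1 fit that left out an array were those of PP2C28, PP2C32, PP2C35, PP2C59, PP2C64, PP2C68, PP2C70 and PP2C71, with adjusted p up to 0.167. In the mutant 4 genes were higher and 4 were lower, 14.5% in all, where 6.51% of all genes were higher and 8.98% were lower (15.5% in all). The median age difference in the mutant was -0.02 beside -0.01 over all genes. Without the array labelled gs1;2 at 11 d replicate 3, 3 of these 8 calls remained (PP2C10, PP2C25 and PP2C29), and PP2C08 was called lower.

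The age differences that follow are on the probe sets used. The largest rises with age in wild type were those of PP2C61 at 2.63 (SE 0.16), PP2C25 at 1.36 (SE 0.13), PP2C39 at 1.25 (SE 0.16), PP2C12 at 1.11 (SE 0.17), PP2C02 at 1.08 (SE 0.10) and PP2C34 at 0.99 (SE 0.10). In the mutant the age differences of PP2C61, PP2C39, PP2C12, PP2C02 and PP2C34 were 0.22, 0.49, 0.15, -0.23 and -0.08, none past the threshold. The largest falls in wild type were those of PP2C36 at -0.86 (SE 0.09), PP2C73 at -0.79 (SE 0.08), PP2C13 at -0.77 (SE 0.09), PP2C54 at -0.76 (SE 0.08), PP2C01 at -0.57 (SE 0.12) and PP2C57 at -0.49 (SE 0.08).

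PP2C39 had signals of 8.29, 8.51 and 8.67 in wild type at 7 d and 9.78, 9.62 and 9.81 at 11 d, and in the mutant 8.33, 9.00 and 8.47 at 7 d and 8.98, 9.02 and 9.26 at 11 d. PP2C12 had signals of 8.32, 7.89 and 8.13 in wild type at 7 d and 9.18, 9.31 and 9.17 at 11 d, and in the mutant 7.95, 8.76 and 8.37 at 7 d and 8.45, 8.62 and 8.45 at 11 d. In both genes the age groups were apart in wild type and overlapped in the mutant. PP2C10 had signals of 9.54, 9.60 and 9.68 in wild type at 7 d and 10.39, 10.56 and 10.52 at 11 d, and in the mutant 9.69, 9.64 and 9.87 at 7 d and 10.19, 10.02 and 10.19 at 11 d. It rose in both genotypes without overlap, by 0.88 (SE 0.09) in wild type and 0.40 (SE 0.09) in the mutant, and the interaction was -0.48 (SE 0.12, limma adjusted p 0.013). PP2C44 had signals between 8.82 and 9.23 on the 7 d arrays and between 9.35 and 9.46 on the 11 d arrays of both genotypes, and its genotype differences did not pass at either age.

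On the probe sets used, PP2C29 changed most with age in the mutant. Its signals were 7.64, 7.68 and 7.43 at 7 d and 6.94, 6.79 and 6.52 at 11 d, a change of -0.83 (SE 0.14, limma adjusted p 0.00317), and its 7 d mutant arrays were above the other 9. PP2C25 was also lower at 11 d in the mutant, at -0.66 (SE 0.13), and PP2C35 and PP2C71 were lower at -0.32 (SE 0.08) and -0.28 (SE 0.07). PP2C59, PP2C10, PP2C44 and PP2C45 were higher, at 0.46 (SE 0.11), 0.40 (SE 0.09), 0.34 (SE 0.09) and 0.27 (SE 0.07). Of these 8 calls, those of PP2C25 and PP2C29 held in every fit that left out one array.

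Set side by side, 4 genes (PP2C10, PP2C44, PP2C45 and PP2C59) were higher at 11 d in both genotypes, where 2.47% of all genes were. On its other probe set PP2C45 was higher with age in wild type, at 2.05, and lower in the mutant, at -2.36. PP2C35 and PP2C71 were lower in both, where 4.85% of all genes were. Of the genes called alike in both genotypes, only PP2C10 kept its mutant call without the array labelled gs1;2 at 11 d replicate 3. On the probe sets used, PP2C25 was the 1 member higher with age in wild type and lower in the mutant, where 1.49% of all genes were. Another 20 members were called higher in wild type and not called in the mutant, where 21.5% of all genes were, which alone does not show that the genotypes differed.

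The interaction tests that difference itself. It called 5 genes (9.09%) with a genotype difference that moved up from 7 to 11 d and 17 (30.9%) with one that moved down, where 18.6% of all genes moved up and 19.6% moved down (38.2% in all). The largest downward values were PP2C61 at -2.41 (SE 0.22), PP2C25 at -2.02 (SE 0.18), PP2C02 at -1.31 (SE 0.15), PP2C11 at -1.08 (SE 0.15), PP2C34 at -1.07 (SE 0.14) and PP2C12 at -0.96 (SE 0.24). These are values on the probe sets used, and the other probe set of PP2C45 gave -4.41 (SE 0.46, limma adjusted p 5.86e-05). The 5 upward values were PP2C54 at 0.91 (SE 0.11), PP2C36 at 0.81 (SE 0.13), PP2C73 at 0.71 (SE 0.11), PP2C13 at 0.66 (SE 0.13) and PP2C57 at 0.55 (SE 0.12). All 14 genes lower in the mutant at 11 d were among the 17, and the other 3 were PP2C47, PP2C66 and PP2C69. The interaction contains the 11 d difference, so this overlap is no separate result, and its share over all genes was not counted. Without the array labelled gs1;2 at 11 d replicate 3, 20 of the 22 calls remained. The calls of PP2C32, PP2C39, PP2C47 and PP2C66 were the 4 lost in at least 1 fit that left out an array, with adjusted p up to 0.0692.

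In 16 genes (29.1%) all 3 wild-type arrays at 11 d were above the other 9, where 20.7% of all genes were, and in 9 genes (16.4%) they were below, where 21.5% of all genes were. The arrays labelled gs1;2 at 11 d were above the other 9 for PP2C40, PP2C53 and PP2C72 (6.33% of all genes) and below for PP2C25 (5.92%). The wild-type arrays at 7 d were above for PP2C26 and PP2C57 (6.68%) and below for PP2C09, PP2C34, PP2C45, PP2C60 and PP2C69 (4.02%), and the mutant arrays at 7 d were above for PP2C29, PP2C35 and PP2C66 (2.28%) and below for 0 genes (0.938%). The group that stood apart most often in the family was thus the wild type at 11 d, the group that also stood apart over all probe sets. Another 15 members passed in no comparison, namely PP2C07, PP2C08, PP2C18, PP2C21, PP2C26, PP2C27, PP2C30, PP2C31, PP2C33, PP2C40, PP2C51, PP2C52, PP2C67, PP2C75 and PP2C78.

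**Figure D4:**
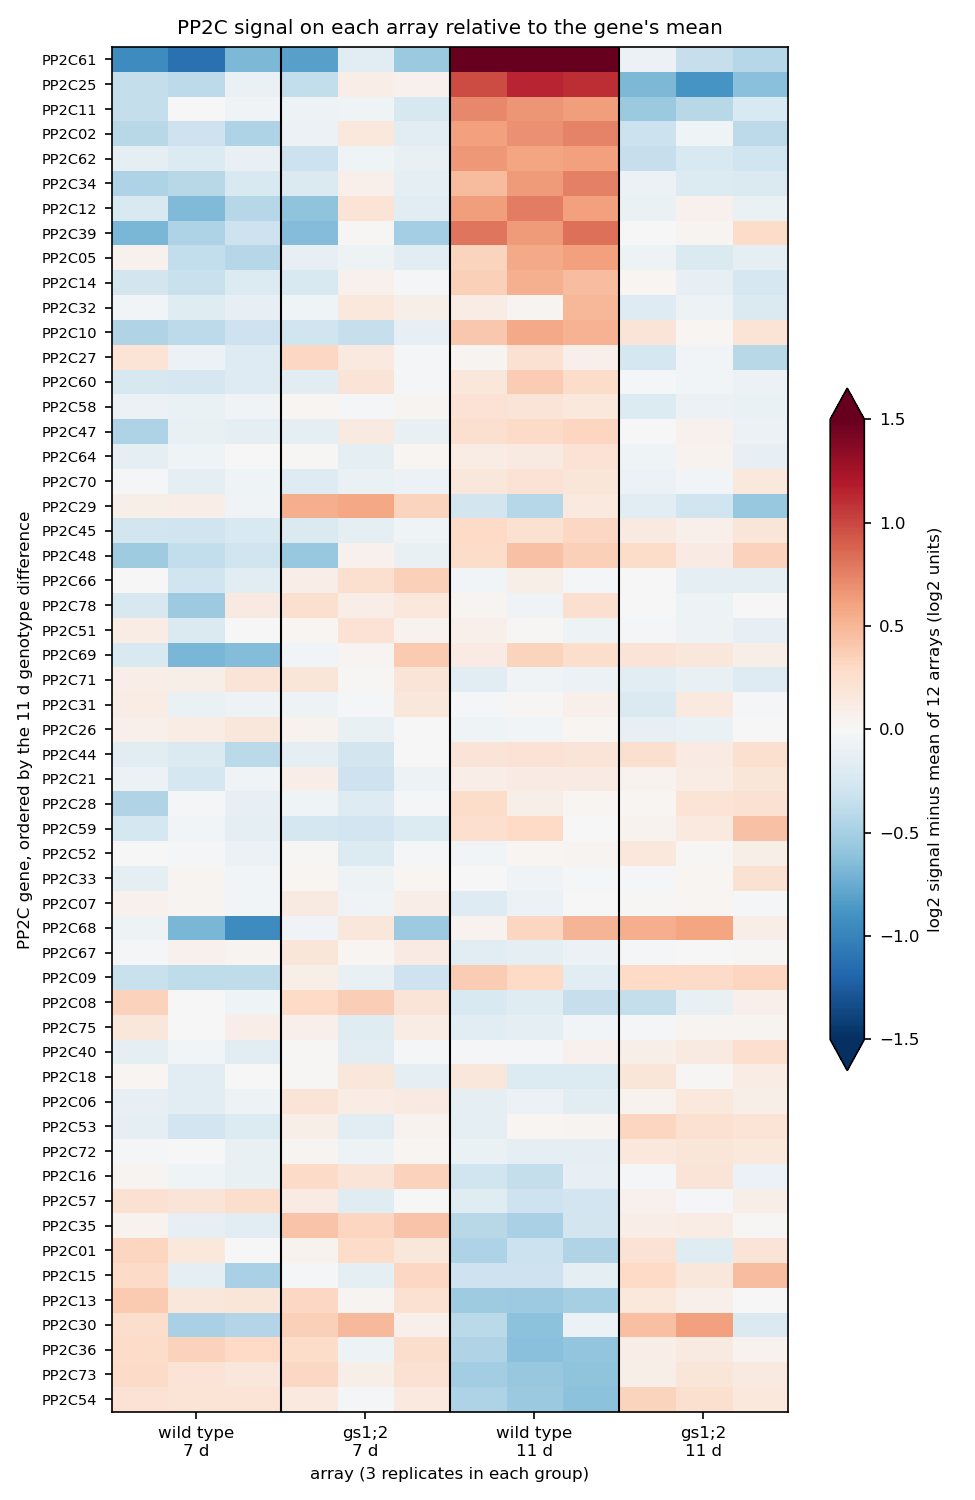
Log2 signal minus the gene's mean over 12 arrays, for 55 PP2C genes (rows, ordered by the genotype difference at 11 d) and the 12 arrays (columns, by group), with the colour scale limited at 1.5 each way. The 3 wild-type columns at 11 d are high for genes at one end, such as PP2C61, and low at the other, such as PP2C54.

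Some genes listed as markers of other tissue also differed between the genotypes at 11 d. Of 8 green leaf genes 6 were higher and 1 lower (LIR1, at -2.53) in the mutant at 11 d, where 23.9% of all genes were higher and 22.8% lower. The log2 of their summed signal was 14.0 to 14.2 in wild type and 14.3 to 14.5 in the mutant. At 7 d it was 13.6 to 14.1 in wild type and 13.7 to 14.0 in the mutant. Of 6 root genes 4 were higher and 0 lower at 11 d (SCR1, SHR1, LSI2 and PHT1-2). The sums of all 6 were 9.47 to 9.63 in wild type and 9.90 to 10.0 in the mutant, and at 7 d 10.1 to 10.2 and 9.70 to 10.0. LSI2 and PHT1-2 had 11 d group means below 4.97, the median of all probe sets. LSI1, the root gene with the highest signal, did not pass at 11 d. Of 4 class I KNOX genes, which mark the shoot meristem, OSH6 was higher at 0.29 and OSH71 lower at -0.52 at 11 d, OSH1 and OSH43 did not pass, and the sums were 11.8 to 12.3 over all arrays. Without the array labelled gs1;2 at 11 d replicate 3 the calls of the root gene LSI2 and of OSH6 (adjusted p 0.121) were lost and the other marker calls at 11 d remained. Without detection calls no marker can be called absent, and their part in the PP2C results was not tested.

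For 12 members other probe sets gave a second reading, and 17 extra probe sets were compared with the one used. They gave the same call for all 17 at 7 d, for 7 at 11 d and for 10 in the interaction. For age they gave the same call for 9 in wild type and for 15 in the mutant. The probe sets of a gene read different stretches of its transcripts, so their signals are not set against each other.

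PP2C45 was the gene whose probe sets disagreed most. On the probe set used, its signals at 11 d were 10.97, 10.89 and 10.98 in wild type and 10.81, 10.74 and 10.85 in the mutant, a difference of -0.15 that did not pass. On the other, its signals at 7 d were 7.73, 8.36 and 8.30 in wild type and 7.43, 8.80 and 7.88 in the mutant. At 11 d they were 10.12, 10.18 and 10.22 in wild type and 5.23, 5.51 and 6.29 in the mutant, with the 2 genotypes far apart. That difference was -4.50 (SE 0.32, limma adjusted p 1.55e-06), and it stayed between -4.81 and -4.28 when each array was left out. The interaction on that probe set was -4.41 (SE 0.46, limma adjusted p 5.86e-05) and passed in all 12 fits that left out one array. In the mutant the 2 probe sets were called in opposite directions with age, at 0.27 and -2.36. Both carry the suffix that Affymetrix gives to sets matching several transcripts of 1 gene.

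PP2C73 had 4 probe sets. The 2 with the higher signal were higher in the mutant at 11 d, at 0.70 and 0.62, and the other 2, with signals up to 3.85, gave 0.15 and -0.17 and did not pass. PP2C66 had 3 probe sets, with 11 d differences of -0.10 (not passed), -0.37 (lower) and 0.31 (higher). The -0.37 call was lost without the array labelled gs1;2 at 11 d replicate 3 (adjusted p 0.0708) and held in 8 of the 12 fits that left out one array, and the 0.31 call held in 10. PP2C47 gave -0.29 on the probe set used, which did not pass, and -0.37 on the other, which did. PP2C75 gave 0.13 on the probe set used, which did not pass, and 0.41 on another, which did. For PP2C14, PP2C39 and PP2C62, each lower at 11 d on the probe set used, the second probe set did not pass. The second sets of PP2C14 and PP2C62 had 12-array means of 3.32 and 2.28. Both lay below the median of all probe sets (4.97), so a change could go unseen there. The 11 d calls of the other probe sets of PP2C45, PP2C47, PP2C73 and PP2C75 remained without the array labelled gs1;2 at 11 d replicate 3.

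**Figure D5:**
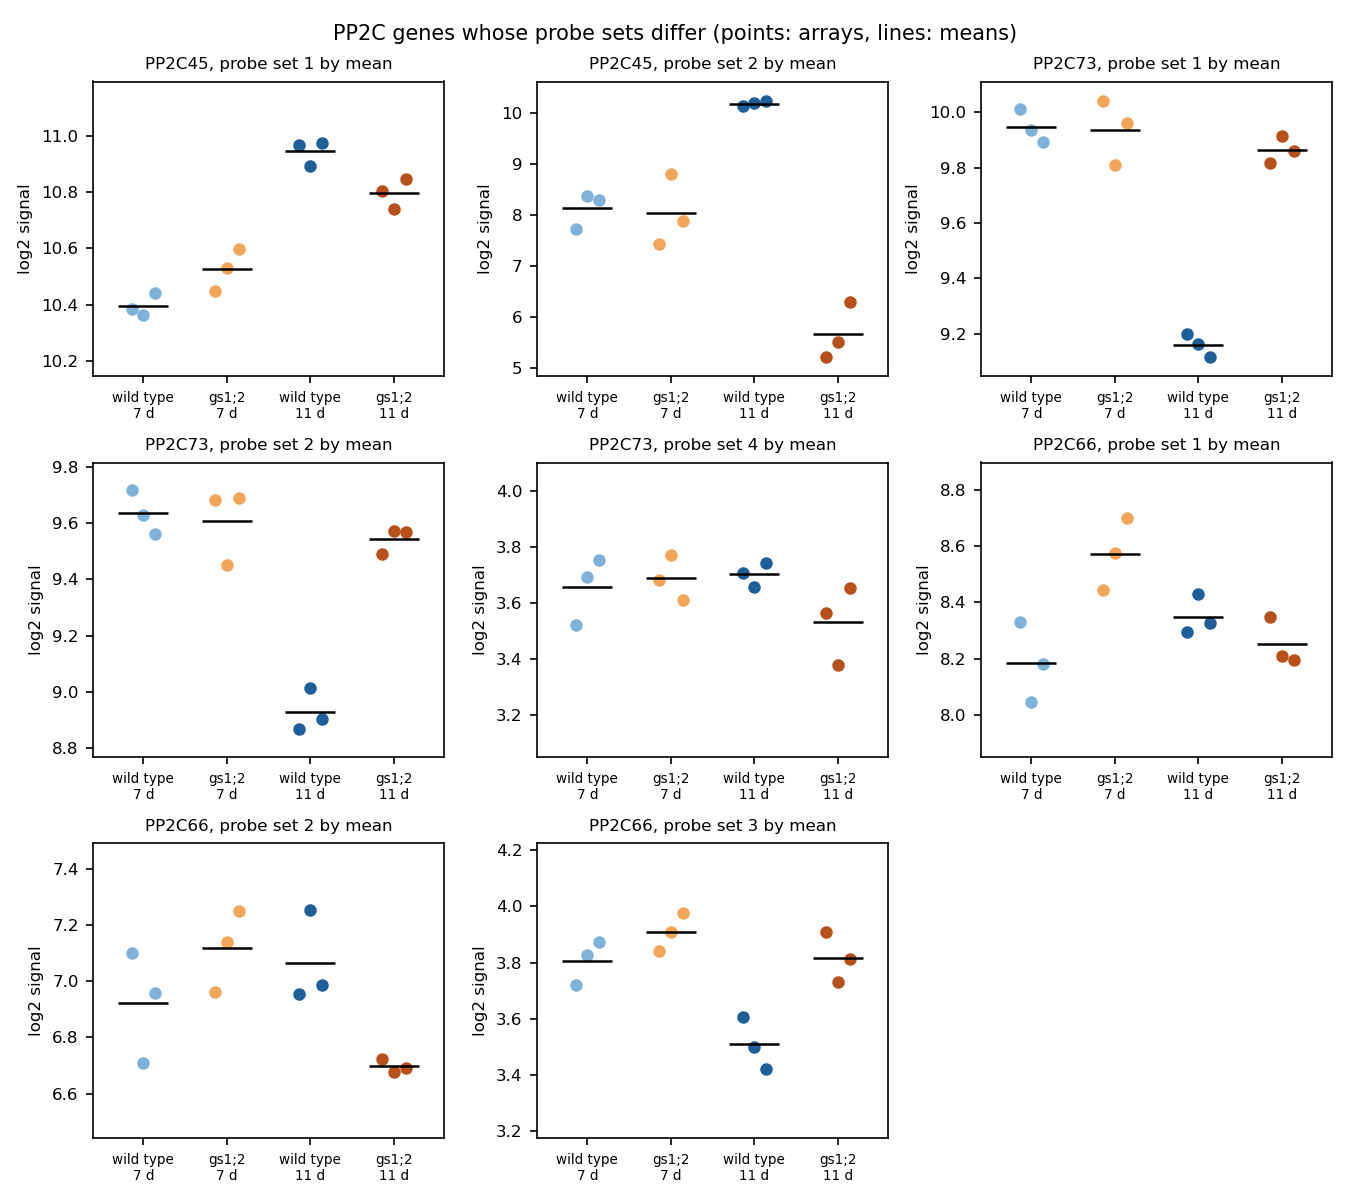
Log2 signal on each array for several probe sets of PP2C45, PP2C73 and PP2C66, by genotype and age, with lines at group means. The second probe set of PP2C45 falls to between 5.23 and 6.29 in gs1;2 at 11 d, while the first stays between 10.74 and 10.85.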

How the data were processed

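The authors deposited 1 table of log2 signals for 57381 probe sets on 12 arrays, and per the submitters' processing notes RMA and R 3.1.0 were used. How RMA was set up (background correction, summary) is not given in the sources used here. No scanner files or detection calls were used, and the small number of arrays limits the precision. After 187 control probe sets were left out, 57194 were tested. Of these, 22436 had 1 gene in the array annotation, 95 had several and 34663 had none listed. Names came from that annotation and a gene table of assembly ASM3414082v1.

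One limma 3.58.1 fit in R 4.3.3 held a mean for each of 4 groups over all 12 arrays, with default moderation. The contrasts were the genotype difference at each age, its change between ages, and the age difference in each genotype. P-values were two-sided and adjusted over all tested probe sets, with a threshold of 0.05. They set a difference against the spread between arrays within groups, pooled over the 4 groups and moderated over all tested probe sets. The fit was tested on simulated data. The percentages given for all genes used 1 probe set per gene, chosen as for the PP2C genes.

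The members and gene lists were chosen with earlier results of these data known. Genes were named with their difference and its error where they were among the 10 largest differences each way in a genotype contrast or the 6 largest in the others, or belonged to the ABA co-receptors, PP2C27 or PP2C35. PP2C13, PP2C34 and PP2C69 fall under this rule too. A planned ranking of members by level was dropped, because signals of different probe sets are not comparable. Alternatives changed the moderation, the groups fitted, dim probe sets, normalization, array weights, the probe set read, single arrays and a replicate block. No sequences were used here.

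The 7 d titles share the numbers 8 and 9 across genotypes. Deviations from the group means correlated at 0.047 and 0.0513 between arrays of the same number, and the labels do not say that a number marks a shared culture.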

Additional observations from a re-analysis of the deposited data

Results flagged for a closer look

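The genotype difference at 11 d differed from that at 7 d, by the interaction test of the limma fit, for 22 PP2C genes (40.0%), where 38.2% of all genes were called. Each value here is the 11 d difference minus the 7 d difference, in log2. It was negative for PP2C61 (-2.41), PP2C25 (-2.02), PP2C02 (-1.31), PP2C11 (-1.08), PP2C34 (-1.07), PP2C12 (-0.96) and PP2C62 (-0.89). It was also negative for PP2C14 (-0.77), PP2C05 (-0.77), PP2C39 (-0.76), PP2C69 (-0.73), PP2C60 (-0.56) and PP2C32 (-0.55). For PP2C47 (-0.49), PP2C66 (-0.49), PP2C10 (-0.48) and PP2C58 (-0.41) it was negative and smaller. It was positive for PP2C54 (0.91), PP2C36 (0.81), PP2C73 (0.71), PP2C13 (0.66) and PP2C57 (0.55). The calls of PP2C32 and PP2C47 were lost without the array labelled gs1;2 at 11 d replicate 3. These values are on the probe sets used, and the other probe set of PP2C45, not counted here, gave -4.41 (limma adjusted p 5.86e-05).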

How the results depend on the processing

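At 7 d the count of PP2C genes higher in the mutant was 2, and it was 4 with trend and robust moderation, 0 with only the groups compared and 4 without dim probe sets. With the title numbers as a replicate block the 7 d counts were 1 higher and 0 lower, and neither called gene remained (PP2C35 at an adjusted p of 0.216 and PP2C69 at 0.109). The gene called was PP2C30, at 0.0447. The block fit held only the 7 d arrays numbered 8 and 9, without wild-type 7 d replicate 1 and mutant 7 d replicate 3. The block and the smaller set of arrays cannot be told apart in these changes. Genes lower with age in wild type numbered 8, and 13 with a new quantile normalization. With only the groups compared, the age counts in the mutant were 2 higher and 2 lower in place of 4 each. Leaving out each array in turn gave 0 to 3 genes higher and 0 to 0 lower at 7 d, 8 to 13 higher and 12 to 16 lower at 11 d, and 5 to 6 up and 15 to 19 down in the interaction. For age it gave 21 to 26 higher and 7 to 9 lower in wild type, and 1 to 5 higher and 2 to 6 lower in the mutant. The 7 d count was 0 without wild-type 7 d replicate 2 or 3 or mutant 7 d replicate 3. It was 1 without mutant 7 d replicate 2 or any 11 d array. The age count in the mutant was 2 higher without mutant 7 d replicate 1. It reached 1 higher without mutant 11 d replicate 1 or the array labelled gs1;2 11 d replicate 3. The count was 2 lower without mutant 7 d replicate 3 or 11 d replicate 1 or 2. Of the genes called, 19 of 26 at 11 d, 18 of 22 in the interaction, 25 of 33 for age in wild type and 2 of 8 for age in the mutant passed in every such fit.

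Directions were reversed on the probe set with the lowest mean. PP2C73 was then at -0.17 at 11 d, -0.20 in the interaction and 0.046 for age in wild type. PP2C66 was at 0.21 in the interaction, PP2C48 at -0.11 for age in wild type and PP2C45 at -2.36 for age in the mutant. Of these reversed values only that of PP2C45 passed (limma adjusted p 0.000694). The sets of PP2C73, PP2C66 and PP2C48 had 12-array means of 3.64, 3.76 and 2.60, below the median of all probe sets (4.97). The cause was not tested.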
